A study of Mus musculus with 11 samples.

Results

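Aminoacyl-tRNA synthetases, the enzymes that load each amino acid onto its transfer RNA, were followed in pancreatic islet RNA from virgin and multiparous mice with or without the insulin receptor antagonist S-961. The 35 genes were chosen as a family by name. The paper on these data had already named *Lars2* among the genes higher in untreated multipara islets. The tests of *Lars2* below are therefore not those of an unselected gene. They comprised 19 genes of cytosolic enzymes and 16 genes of mitochondrial enzymes, whose symbols end in 2, among 55536 genes in each library, and all 35 were found once and passed the filter on low counts in every comparison. The bulk RNA-seq series held 11 islet libraries from wild-type C57BL/6J female mice, of which 2 were virgin and untreated, 2 multipara and untreated, 3 virgin with S-961 and 4 multipara with S-961. Mice labelled multipara entered the study at 9 weeks of age, went through 3 pregnancies and were studied 3 weeks after the last delivery, and the virgin mice were matched for age. All 4 groups shared the wild-type genotype and carried no transgene. S-961, an insulin receptor blocking peptide given by injection, makes the whole animal insulin resistant. The labels do not say whether each library came from 1 mouse or from several, so the p-values measure the spread between these libraries.

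Each synthetase recognises a single amino acid and its transfer RNAs, and cells keep a cytosolic set for ordinary protein synthesis and a nuclear-encoded mitochondrial set for the few respiratory chain proteins made inside mitochondria. *Gars* and *Kars* encode both forms of the glycine and lysine enzymes, so they have no separate mitochondrial gene, and *Lars2* encodes the mitochondrial leucine enzyme. Several cytosolic synthetase genes are known targets of ATF4, the transcription factor that cells make when amino acids run short or the endoplasmic reticulum is stressed, and the β cell, which devotes much of its translation to insulin, is known for its reliance on that response.

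Total counts ran from 22028507 to 32234146 per library, and the synthetase genes together took 0.204% to 0.318% of them. Insulin genes took 35.3% to 41.4% of the counts in untreated libraries and 13.2% to 20.7% in S-961 libraries. All 14 acinar cell markers were measured, and their summed level was 2202 to 15691 CPM, which are counts scaled to a common library size, in the 7 S-961 libraries and 120.4 to 238 CPM in the 4 untreated libraries, where *Ptf1a* was at 0 in 2 libraries. Libraries labelled multipara S-961 1, 2 and 3 had a mean log2 CPM of 4.43 to 5.64 over 7 proliferation markers. Multipara S-961 4 was at 1.87 and the virgin S-961 libraries at 1.63 to 2.67. Of these markers, *Cdk1* was at 26, 33.7, 11 and 0.768 CPM in multipara against 1.3, 1.39 and 0.712 CPM in virgin S-961 libraries. The paper reports the opposite direction, with *Cdk1* and other cell cycle genes lower in multipara islets with S-961. The reason was not tested, and every group here follows the sample titles. Multipara S-961 3 also had the lowest mean log2 CPM over the cytosolic synthetases, 6.04 against 6.32 to 6.47 in the other 10 libraries. Multipara untreated 1 was the library with the highest immune marker score, 5.41, against 1.08 to 2.90 in the others. The counts of members called, the medians of both sets and the members described by library were refitted without each library. Those that changed without any of these libraries are given with and without it. The other gene lists, the correlations and the ratios of levels were not refitted in this way. In bulk islet RNA, fewer cells of a type and less RNA per cell cannot be told apart.

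Cytosolic synthetase genes had a higher median level than the mitochondrial ones in every library. Levels between genes were compared as CPM per kilobase of the longest annotated coding transcript. The median of the cytosolic genes was 3.54 to 5.06 times the median of the mitochondrial genes over the 11 libraries. The ratio was 4.58 to 5.06 in the 4 untreated libraries and 3.54 to 4.28 in the 7 S-961 libraries, so that the treatment groups did not overlap. *Gars*, *Sars* and *Nars*, the enzymes for glycine, serine and asparagine, led the cytosolic genes with 91.9, 67.7 and 64.5 CPM per kilobase as means over the 4 groups. *Vars*, the valine enzyme, was the lowest of them with 13.7 CPM per kilobase. Of the mitochondrial genes other than *Lars2*, *Rars2* (arginine) was the highest with 13.9 CPM per kilobase and *Mars2* (methionine) the lowest with 0.43 CPM per kilobase.

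*Lars2* stood apart from both sets. Its mean level over the groups, 146 CPM per kilobase, was the highest of the 35 genes, and this rested on the untreated multipara libraries, where it reached 459.7 CPM per kilobase against 71.6 in virgin untreated, 28.1 in virgin S-961 and 24.0 in multipara S-961 libraries. Its highest CPM was 28.5 times its lowest over the 11 libraries, whereas the same range of the other 34 genes ran from 1.34-fold to 3.24-fold. *Lars2* took 42.8% and 44.5% of all counts on the 35 genes in the untreated multipara libraries, 13.8% and 7.53% in the untreated virgin libraries, and 3.8% to 5.91% in the S-961 libraries.

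In CPM, *Lars2* was at 1614 and 1966 in the multipara untreated libraries and at 365 and 193 in the virgin untreated libraries. With S-961 the virgin libraries held 91.2, 127 and 109.8 CPM and the multipara libraries 95.3, 113, 69.1 and 95.8 CPM. Both untreated multipara libraries lay above both untreated virgin libraries, all 7 S-961 libraries lay below all 4 untreated ones, and the S-961 groups overlapped. The lowest of these values corresponded to 2683 counts, so depth did not limit them.

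**Figure D1:**
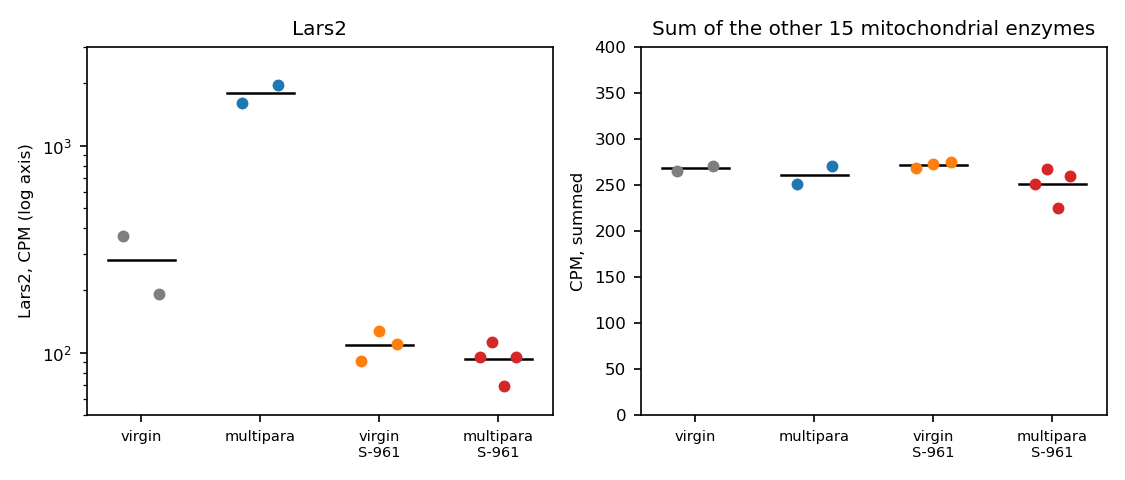
Level of *Lars2* in CPM on a log axis (left) and summed CPM of the other 15 mitochondrial synthetase genes on a linear axis (right), by group. Each point is a library and each bar the group mean. *Lars2* separates into 1614 and 1966 CPM in untreated multipara libraries, 365 and 193 in untreated virgin libraries and 69.1 to 127 with S-961, while the sum of the other genes stays between 225 and 275 CPM.

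Multiparity without S-961 was compared over 2 against 2 libraries to ask how repeated pregnancy alone left these genes. *Lars2* was 6.44-fold higher in multipara libraries, which is 2.69 on the log2 scale (standard error, SE, 0.35, and 95% interval 1.77 to 3.61). Its unadjusted p was 0.000904 and its adjusted p was 0.719 by edgeR's quasi-likelihood test, so the difference did not pass the threshold of 0.05 over all genes. The DESeq2 Wald test called it, with an adjusted p of 5.44e-06. edgeR also called it when multipara untreated 1 was left out, with an adjusted p of 0.00332, or multipara untreated 2, with 0.00147. In these fits of 1 against 2 libraries the spread comes from the virgin pair alone and the lone multipara library is assumed to vary like it, so they are no support for the call. Over 10 alternative settings and left-out libraries the adjusted p ran from 5.44e-06 to 1, and the log2 fold change from 2.30 to 3.34. Markers of other cells differed in this contrast, though 0 passed the adjusted threshold. The 3 red cell markers had a median log2 fold change of 3.43, all with an unadjusted p under 0.05, and the 4 alpha cell markers one of -0.42, with 3 under 0.05. Acinar markers, of which 13 were tested, had a median of 0.62, with 4 under 0.05, all higher. For the 2 delta cell markers the median was -0.38, with 1 under 0.05. Immune markers had a median of 2.08 and proliferation markers of 1.75, with 0 under 0.05, and in multipara untreated 1 the red cell score was 7.34 and the proliferation score 3.95. Their part in the *Lars2* difference was not tested.

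None of the 35 genes passed the adjusted threshold in this comparison, as 0 of 15812 genes did (0%). *Lars2* was the only member with an unadjusted p under 0.05, against 5.62% of all genes tested. The pair of multipara values exceeded the pair of virgin values for 5 members, *Lars2*, *Farsa*, *Hars*, *Kars* and *Wars*, against 18.2% of all genes. Both were below for 4 members, *Farsb*, *Ears2*, *Nars2* and *Wars2*, against 19.5% of all genes. Both shares of the members lay below these backgrounds. The median log2 fold change was 0.00 for the cytosolic genes and -0.01 for the mitochondrial genes, beside 0.02 for all genes tested.

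The members that came next after *Lars2* by p differed little. *Ears2*, the mitochondrial glutamate enzyme, was at 12.4 and 11.7 CPM in multipara against 14.5 and 14.9 CPM in virgin untreated libraries, a log2 fold change of -0.28 (SE 0.12, adjusted p = 0.719). *Wars*, the tryptophan enzyme, which is also known as an interferon-induced gene, was at 109 and 85.2 CPM in multipara against 81.5 and 73.6 CPM in virgin libraries. Its log2 fold change was 0.33 (SE 0.16, adjusted p = 0.719). The higher of the *Wars* values was from multipara untreated 1, and without multipara untreated 2 the fit called *Wars* and *Vars* beside *Lars2*, with the spread again taken from the virgin pair alone. *Farsb*, the β subunit of the phenylalanine enzyme, was at 39.8 and 38.3 CPM in multipara against 48.0 and 41.4 CPM in virgin libraries, a log2 fold change of -0.19 (SE 0.11). *Hars*, the histidine enzyme, was at 41.5 and 36.8 CPM in multipara against 35.6 and 34.5 CPM in virgin libraries, a log2 fold change of 0.17 (SE 0.11). Leaving out *Lars2*, the means of multipara libraries over virgin libraries ran from 0.82-fold to 1.26-fold among the members.

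The cytosolic leucine enzyme *Lars* did not follow its mitochondrial counterpart. It was at 69.4 and 96.8 CPM in multipara against 82.3 and 74.9 CPM in virgin untreated libraries, so that the groups overlapped, and its log2 fold change was 0.08 (SE 0.16). *Lars2* lies on chromosome 9 of the GRCm38 build, chr9:123366927-123462666, on the plus strand. The 7 tested neighbours within 200 kb did not pass the threshold in this comparison. *Limd1*, which starts downstream of *Lars2* on the same strand, had a log2 fold change of 0.01 (SE 0.07), *Sacm1l* of -0.15 (SE 0.12) and *Cdcp1* of -0.11 (SE 0.11). The neighbour *Tmem158* was at 2.14 and 1.58 CPM in multipara against 0.957 and 1.25 CPM in virgin untreated libraries, a log2 fold change of 0.77 (SE 0.35, adjusted p = 0.719). The low-expressed neighbours *Scp2-ps2*, *Slc6a20a* and *Gm47162* were at 0.01 (SE 0.25), 0.22 (SE 0.53) and -0.45 (SE 0.47).

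Reads of other transcripts that share sequence with *Lars2* were considered, because the authors' counting divided shared reads between genes. The longest annotated coding transcript of *Lars2*, of 3894 bases, had no match to either mitochondrial ribosomal RNA. It matched 2 other genes over short stretches, *AA474408* over 97 and 50 bases and *Gm15564* over 72 bases. The exons annotated to *Lars2* cover 11089 bases in all, and those outside this transcript were not compared, so matches there are not known. *AA474408* was at 0.38 to 1.58 CPM over all libraries and *Gm15564* at 0 to 0.0296 CPM. *mt-Rnr1* and *mt-Rnr2*, the RNAs of the mitochondrial ribosome, had log2 fold changes of 0.16 (SE 0.10) and 0.27 (SE 0.11) between untreated multipara and virgin libraries. The loci *Gm42418*, *AY036118* and *CT010467.1* were taken as ribosomal repeat loci, which was not checked by sequence. They were not among the genes that the compared *Lars2* transcript matched. The summed level of these loci was 2143 and 3582 CPM in multipara against 1824 and 2167 CPM in virgin untreated libraries. With S-961 it was 1789, 2519 and 2175 CPM in virgin and 1809, 2091, 1344 and 1897 CPM in multipara libraries. This sum was 18.5 to 19.8 times *Lars2* in each of the 7 S-961 libraries, a nearly constant multiple, and the same multiple was 5 and 11.2 in virgin and 1.33 and 1.82 in multipara untreated libraries. These loci were chosen after their values were seen. *AY036118* alone was at 0 in all 7 S-961 libraries and at 152 to 190 CPM in the 4 untreated libraries, while *CT010467.1* was at 1279 to 2446 CPM and 1549 to 3288 CPM. *Rn7sk*, a nuclear RNA that normally lacks the poly(A) tail these libraries select, was at 21.5 and 43.6 CPM in multipara against 8.26 and 14.9 CPM in virgin untreated libraries, and at 1.13 to 2.62 CPM with S-961. The part of these RNAs in the *Lars2* values was not tested.

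The other listed genes of mitochondrial translation did not pass the threshold between untreated groups either. Of 9 translation factors, 0 passed the adjusted threshold and 1, the initiation factor *Mtif2*, had an unadjusted p under 0.05 with a log2 fold change of -0.26 (SE 0.09). Of the 4 genes for transamidation and formylation of charged mitochondrial transfer RNAs, 0 had an unadjusted p under 0.05. Of 13 mitochondrially encoded protein genes, 2 were higher at that unadjusted threshold, and the median log2 fold change of the 13 was 0.12. Over all genes tested, 5.62% had an unadjusted p under 0.05 in either direction, and nothing particular to these small lists is read from their counts. The 2 mitochondrial leucine transfer RNA genes were not tested, since both were at 0 in every library.

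**Figure D2:**
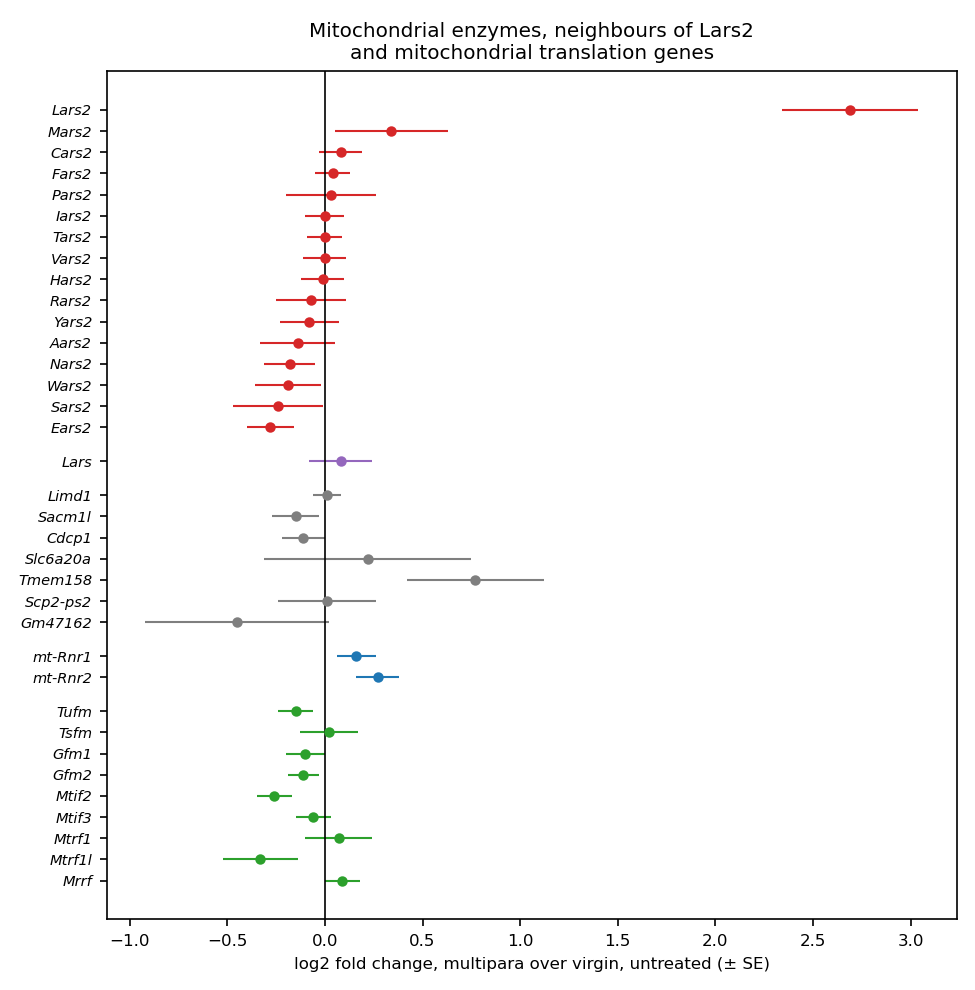
Log2 fold change of untreated multipara over untreated virgin libraries with its SE. From top to bottom are the 16 mitochondrial synthetases (red), cytosolic *Lars* (purple), the tested neighbours of *Lars2* within 200 kb (grey), the mitochondrial ribosomal RNAs (blue) and mitochondrial translation factors (green). *Lars2* lies at 2.69, and the other mitochondrial synthetases lie between -0.28 and 0.34.

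Whether any gene followed *Lars2* was described by the Pearson correlation of log2 CPM over the 11 libraries, which share depth, treatment and processing. Among the other 34 members 15 had a positive and 19 a negative coefficient. The highest were *Fars2* (0.83), *Sars* (0.81) and *Yars* (0.80), genes that were lower with S-961 but had log2 fold changes of 0.04, 0.00 and -0.06 between untreated multipara and virgin libraries. *Sars2* had the lowest coefficient, -0.72. These coefficients followed the split between S-961 and untreated libraries. Over the 7 S-961 libraries alone the coefficient of *Sars2* was 0.88, that of *Qars* 0.89 and that of *Hars2* 0.86, while *Fars2*, *Sars* and *Yars* had 0.61, 0.19 and 0.07. Over all 11286 genes with a mean log2 CPM of at least 2, the 10 highest coefficients ran from 0.92 to 0.95 and belonged to *Brf2*, *Gm45774*, *Gng10*, *Ilvbl*, *Rhog*, *Dazap2*, *Mus81*, *Srbd1*, *Zmat5* and *Rn7sk*. The likest of them by coefficient, *Brf2*, varied 1.84-fold over the libraries against 28.5-fold for *Lars2*. *Rn7sk* varied 38.5-fold and *Gm45774* 5.4-fold.

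**Figure D3:**
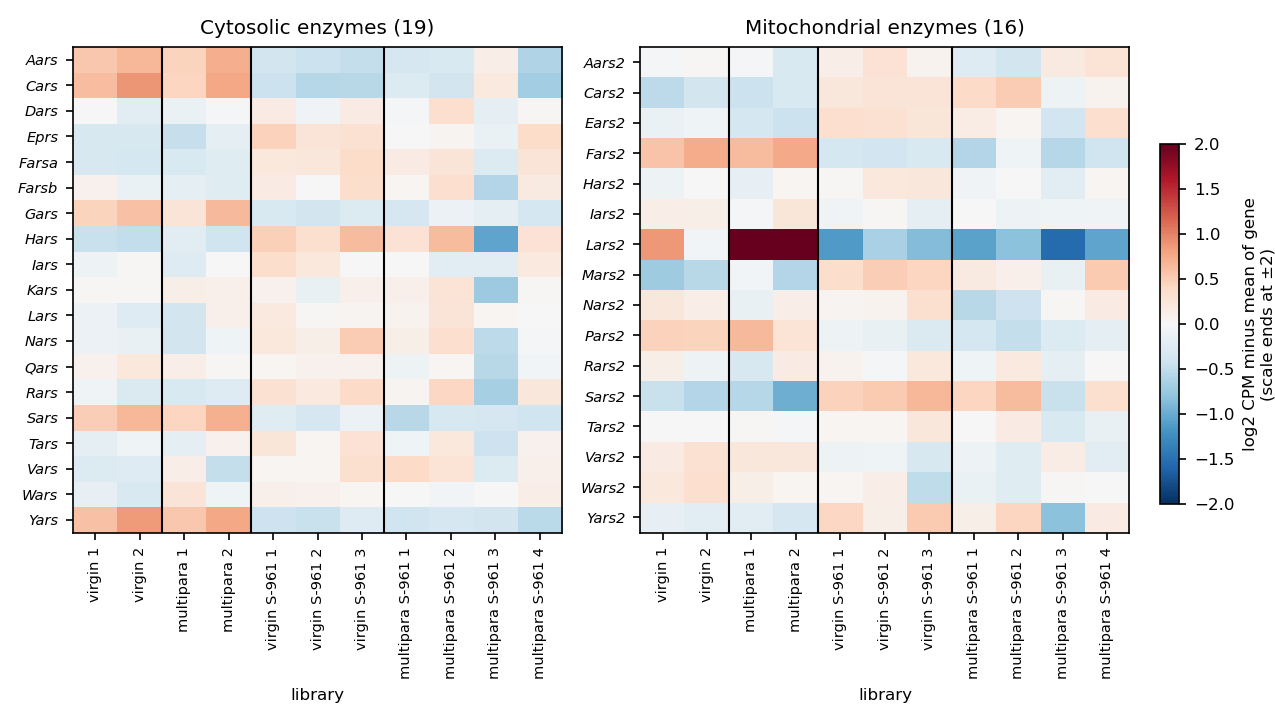
Log2 CPM of each of the 35 genes in each library minus the mean of that gene over the 11 libraries, with cytosolic enzymes on the left and mitochondrial enzymes on the right. Red is above and blue below the mean of the gene, colours end at 2 log2 units, and black lines separate the groups. *Lars2* in the 2 untreated multipara libraries are the fields beyond the scale, and *Aars*, *Cars*, *Gars*, *Sars*, *Yars* and *Fars2* are higher in untreated than in S-961 libraries.

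Multipara and virgin islets with S-961 were compared to ask how the groups differ once insulin demand is raised. None of the members passed the adjusted threshold, as 0 of 16784 genes did (0%), and DESeq2 called 0 members while calling 358 genes higher and 11 lower over all genes. None had an unadjusted p under 0.05 either, against 9.71% of all genes. Every multipara library was above every virgin library for 0 members against 5.41% of genes, and below for 0 members against 3.31%. The median log2 fold change was -0.14 for the cytosolic and -0.16 for the mitochondrial genes, beside 0.00 for all genes, with 26 of the 35 genes lower. Without multipara S-961 3 the medians were -0.04 and -0.09, without virgin S-961 3 the cytosolic median was -0.06, and with the acinar covariate they were -0.03 and -0.11. Markers of other cells also differed here, though edgeR called 0 of them. At an unadjusted p under 0.05, 7 of 7 proliferation (median log2 fold change 2.95), 4 of 4 alpha (0.50) and 4 of 5 stromal markers (1.36) were higher. So were 4 of 14 acinar, 2 of 5 duct and 1 of 2 delta markers, while 3 of 3 red cell (-1.92) and 1 of 8 beta markers were lower. Their part in the synthetase results was not tested. Multipara S-961 3 held the lowest value of its group for 21 of the 35 genes.

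The members with the smallest p illustrate this spread. *Eprs*, which carries the glutamate and the proline enzyme on a single chain, was at 195, 202, 177 and 249 CPM in multipara against 266, 233 and 239 CPM in virgin S-961 libraries, a log2 fold change of -0.24 (SE 0.14, adjusted p = 0.62). The groups overlapped through multipara S-961 4. *Hars2*, the mitochondrial histidine enzyme, was at 21.6, 23.0, 19.5 and 23.4 CPM against 23.2, 26.3 and 26.8 CPM, a log2 fold change of -0.20 (SE 0.12). *Iars*, the isoleucine enzyme, was at 70.7, 61.4, 60.5 and 80.7 CPM against 90.6, 81.7 and 71.0 CPM, a log2 fold change of -0.23 (SE 0.14). Again the highest multipara value came from multipara S-961 4. *Nars2*, the mitochondrial asparagine enzyme, was at 9.71, 10.7, 14.5 and 16.1 CPM against 14.9, 15.1 and 17.8 CPM, a log2 fold change of -0.31 (SE 0.20). *Cars*, the cysteine enzyme, was at 47.3, 44.2, 65.2 and 35.1 CPM against 42.5, 38.5 and 38.9 CPM, a log2 fold change of 0.28 (SE 0.20). *Lars2* itself differed by -0.22 on the log2 scale (SE 0.18, 95% interval -0.62 to 0.19, adjusted p = 0.733).

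The interaction, the difference between the S-961 effects in multipara and in virgin islets, was fitted over all 11 libraries. The interaction of *Lars2* was -2.91 on the log2 scale (SE 0.39, 95% interval -3.77 to -2.06), from an S-961 effect of -4.26 in multipara and -1.35 in virgin islets. Its unadjusted p was 1.3e-05 and its adjusted p 0.222 by edgeR's quasi-likelihood test. No gene had a smaller adjusted p in this fit, though genes can share that value, so 0 of 17996 genes passed (0%). *Lars2* was the only member with an unadjusted p under 0.05 for the interaction, against 6.55% of all genes. DESeq2 gave *Lars2* an adjusted p of 1.91e-10, and edgeR called it without the filter on low counts (0.00601) and without multipara S-961 4 (0.0307). It was not called in 3 of 5 alternative settings, with adjusted p-values up to 0.343, or in 9 of 11 fits with 1 library left out. The fits without an untreated library leave 1 library in that group. Over the left-out libraries the interaction of *Lars2* ran from -3.44 to -2.52. The other 34 members had interactions between -0.57 (*Mars2*, SE 0.35) and 0.41 (*Cars*, SE 0.30). *Wars* had an interaction of -0.39 (SE 0.18, adjusted p = 0.761). *Tars*, the threonine enzyme, had an interaction of -0.30 (SE 0.25). In CPM, *Tars* was at 66.4 and 81.2 in multipara and 67.5 and 72.2 in virgin untreated libraries, and with S-961 at 72.1, 88.7, 57.0 and 80.6 in multipara and 90.1, 78.3 and 93.4 in virgin libraries. Cell markers had interactions too, of which edgeR called 0. At an unadjusted p under 0.05, 4 of 4 alpha (median 0.94), 3 of 5 stromal, 2 of 5 duct and 1 of 2 delta markers were positive. Negative were 3 of 3 red cell (median -5.35), 1 of 6 immune and 1 of 8 beta markers. Their part in the *Lars2* interaction was not tested.

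Between S-961 and untreated libraries of the same parity, 13 members differed in virgin and 10 in multipara islets. In virgin islets 8 of the 35 members fell and 5 rose, against 17.6% of all genes lower and 18.8% higher. In multipara islets 8 fell and 2 rose, against 19.4% lower and 18.2% higher. The share of members that fell was slightly above these backgrounds, and the share that rose was below them. The 8 members that fell were the same genes in both comparisons, which use different libraries but share the fit, and both members that rose in multipara islets also rose in virgin islets. Over all genes tested, 72.9% of those lower in virgin islets were also lower in multipara islets, which was 66.2% of the latter.

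The members that fell comprised 5 cytosolic enzymes and 3 mitochondrial enzymes. *Yars*, the tyrosine enzyme, was at 106 and 128 CPM in virgin untreated and 52.9, 52.0 and 58.8 CPM in virgin S-961 libraries. In multipara islets it was at 103 and 121 CPM untreated and 53.7, 55.8, 54.6 and 48.4 CPM with S-961. The S-961 libraries were below the untreated ones in either parity group, without overlap. Its log2 fold change was -1.10 (SE 0.13, adjusted p = 0.000248) in virgin and -1.08 (SE 0.12, adjusted p = 0.000172) in multipara islets.

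*Aars*, the alanine enzyme, was at 204 and 224 CPM in virgin untreated and 109, 105 and 101 CPM in virgin S-961 libraries. Multipara islets held it at 193 and 233 CPM untreated and 112, 114, 155 and 93.4 CPM with S-961. Multipara S-961 3 was the highest of the treated libraries but below all untreated ones. The log2 fold change was -1.02 (SE 0.19, adjusted p = 0.00209) in virgin and -0.84 (SE 0.18, adjusted p = 0.00415) in multipara islets.

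*Cars* was at 87.3 and 105 CPM in virgin untreated and 42.5, 38.5 and 38.9 CPM in virgin S-961 libraries, a log2 fold change of -1.27 (SE 0.22, adjusted p = 0.00149). In multipara islets it was at 77.2 and 97.6 CPM untreated and 47.3, 44.2, 65.2 and 35.1 CPM with S-961, a log2 fold change of -0.86 (SE 0.20, adjusted p = 0.00771). The groups did not overlap in either parity group, but the multipara call was lost without multipara untreated 2 (adjusted p = 0.0796).

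*Gars* was at 268 and 295 CPM in virgin untreated and 158, 152 and 162 CPM in virgin S-961 libraries. Multipara islets held it at 234 and 307 CPM untreated and 155, 180.2, 174 and 154 CPM with S-961. The groups were separate in both, with a log2 fold change of -0.84 (SE 0.14, adjusted p = 0.00145) in virgin and -0.70 (SE 0.13, adjusted p = 0.00259) in multipara islets. *Sars*, the serine enzyme, was at 296 and 331 CPM in virgin untreated and 177, 167 and 194 CPM in virgin S-961 libraries, and at 284 and 344 CPM untreated and 143, 169, 166 and 159 CPM with S-961 in multipara islets. Its log2 fold change was -0.81 (SE 0.14, adjusted p = 0.00152) in virgin and -0.98 (SE 0.13, adjusted p = 0.000398) in multipara islets.

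Among mitochondrial enzymes, *Fars2*, which charges phenylalanine, was at 33.3 and 37.3 CPM in virgin untreated and 17.5, 17.1 and 18.0 CPM in virgin S-961 libraries. In multipara islets it was at 34.8 and 37.6 CPM untreated and 14.9, 21, 15 and 16.9 CPM with S-961. The separation was of the same size in both groups, with a log2 fold change of -1.01 (SE 0.15, adjusted p = 0.000777) and -1.09 (SE 0.14, adjusted p = 0.000365). *Pars2*, the proline enzyme, was at 5.43 and 5.40 CPM in virgin untreated and 3.68, 3.59 and 3.24 CPM in virgin S-961 libraries, and at 6.21 and 4.79 CPM untreated and 3.12, 2.85, 3.27 and 3.52 CPM with S-961 in multipara islets. Its log2 fold change was -0.63 (SE 0.22, adjusted p = 0.043) and -0.79 (SE 0.20, adjusted p = 0.0124), and the multipara call was lost without the filter on low counts (adjusted p = 0.0728) and without multipara untreated 1 (0.142). The virgin call of *Pars2* was lost without any of the 3 virgin S-961 libraries, either virgin untreated library or multipara S-961 1. *Lars2* fell in both groups, with a log2 fold change of -1.35 (SE 0.27, adjusted p = 0.00349) in virgin and -4.26 (SE 0.26, adjusted p = 2.12e-05) in multipara islets. The virgin call depended on virgin untreated 1, whose 365 CPM was the higher of the virgin values, and without it the log2 fold change was -0.82 with an adjusted p of 0.0664.

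The members that rose with S-961 were 3 mitochondrial and 2 cytosolic enzymes in virgin islets and 2 mitochondrial enzymes in multipara islets. *Sars2*, the mitochondrial serine enzyme, was at 6.85 and 6.21 CPM in virgin untreated and 12.8, 13.4 and 14.7 CPM in virgin S-961 libraries. Multipara islets held it at 6.25 and 4.73 CPM untreated and 12.6, 14.5, 6.82 and 11.6 CPM with S-961, with multipara S-961 3 close to the untreated level. Its log2 fold change was 1.06 (SE 0.28, adjusted p = 0.0135) and 1.05 (SE 0.27, adjusted p = 0.013). The cytosolic serine enzyme *Sars* had fallen in the same islets.

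*Cars2*, the mitochondrial cysteine enzyme, was at 16 and 17.9 CPM in virgin untreated and 26.9, 27.5 and 27.5 CPM in virgin S-961 libraries, and at 17.1 and 18.7 CPM untreated and 30.1, 32.7, 21.4 and 24.2 CPM with S-961 in multipara islets. Its log2 fold change was 0.69 (SE 0.18, adjusted p = 0.0113) and 0.60 (SE 0.17, adjusted p = 0.0174), again opposite to the cytosolic *Cars*. The multipara call of *Cars2* was lost without either multipara untreated library and that of *Sars2* without multipara untreated 2. *Mars2* was at 3.02 and 3.35 CPM in virgin untreated and 6.31, 6.91 and 6.63 CPM in virgin S-961 libraries, and rose by 1.05 (SE 0.26, adjusted p = 0.00926). In multipara islets it was at 4.73 and 3.28 CPM untreated and 5.58, 5.32, 4.45 and 7.12 CPM with S-961, and the groups overlapped (log2 fold change 0.48, SE 0.24, adjusted p = 0.14).

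*Eprs* rose in virgin islets from 155 and 155 CPM to the 3 values between 233 and 266 CPM given above, a log2 fold change of 0.67 (SE 0.16, adjusted p = 0.00901). Multipara islets held it at 141 and 169 CPM untreated, and its log2 fold change of 0.41 (SE 0.15) had an adjusted p of 0.0566. *Farsa*, the α subunit of the phenylalanine enzyme, was at 24.4 and 24.0 CPM in virgin untreated and 35.1, 35.8 and 39.2 CPM in virgin S-961 libraries, a log2 fold change of 0.60 (SE 0.16, adjusted p = 0.0139). In multipara islets it was at 24.7 and 25.7 CPM untreated and 34.2, 36.4, 25.1 and 36.6 CPM with S-961 (log2 fold change 0.39, SE 0.15, adjusted p = 0.0651). All 5 calls in virgin islets were lost when either virgin untreated library was left out, with adjusted p-values of 0.0571 to 0.11. Without multipara S-961 3, on the other hand, 9 members rose and 9 fell in multipara islets, so that the count of calls there depended on that library.

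**Figure D4:**
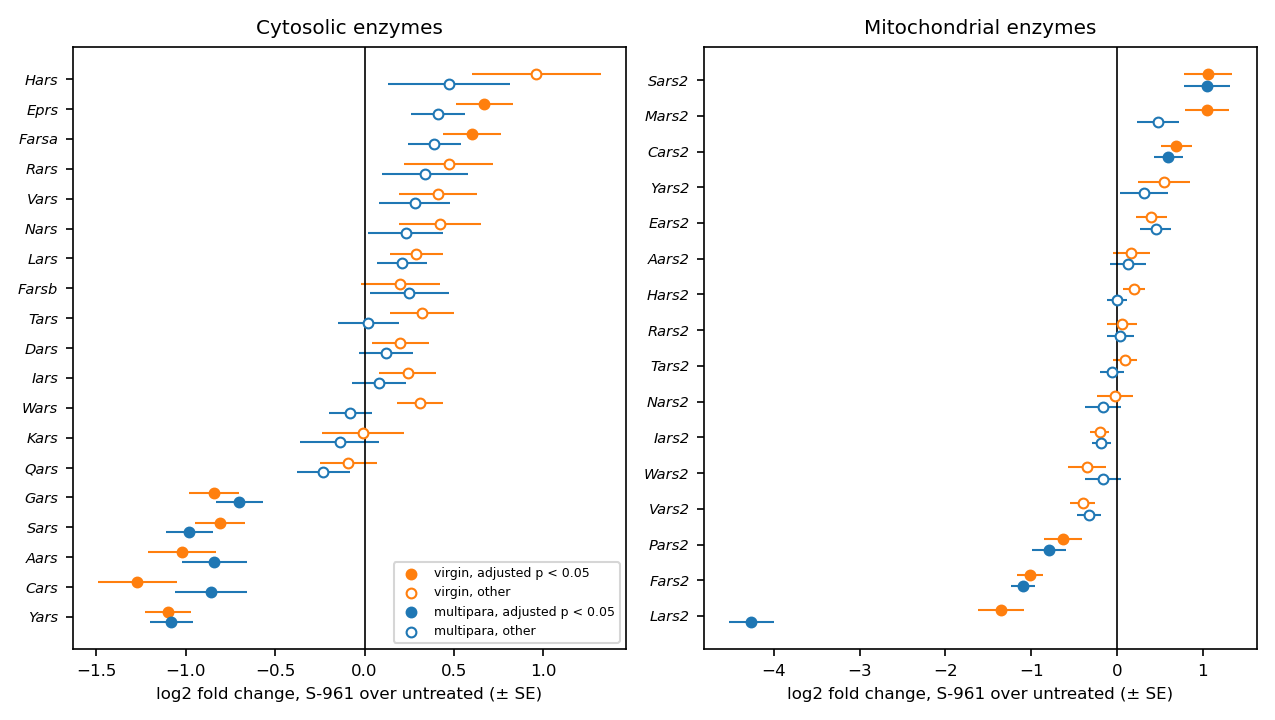
Log2 fold change of S-961 over untreated libraries with its SE for the 19 cytosolic (left) and 16 mitochondrial (right) enzymes, in virgin (orange) and multipara (blue) islets. Filled points have an adjusted p under 0.05. *Gars*, *Sars*, *Aars*, *Cars* and *Yars* lie between -1.27 and -0.70 in both groups, and *Lars2* lies at -1.35 in virgin and -4.26 in multipara islets.

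The cytosolic enzymes that fell were all outside the multi-synthetase complex, a particle in which several synthetases are held together by scaffold proteins. This grouping was chosen after the values were seen. Of the 7 complex members among the genes studied, *Dars*, *Eprs*, *Iars*, *Kars*, *Lars*, *Qars* and *Rars*, 0 fell in virgin or multipara islets, and their log2 fold changes ran from -0.09 to 0.67 and from -0.23 to 0.41. Of the 12 cytosolic members outside it 5 fell in each, against 17.6% of all genes lower in virgin and 19.4% in multipara islets. With only 7 genes, 0 that fell is near those shares, and nothing particular to the complex is read from it. In virgin islets 1 complex member, *Eprs*, and 1 outside member, *Farsa*, rose, against 18.8% of all genes higher. In multipara islets 0 rose in either part, against 18.2% of all genes. The median log2 fold change of the outside members was 0.26 in virgin and -0.03 in multipara islets, beside 0.24 and 0.12 for the complex members. Outside it, *Farsa*, *Farsb*, *Hars*, *Nars*, *Tars* and *Vars* lay above 0 in both groups, and *Wars* in virgin islets only. Of the 3 scaffold genes, *Aimp1* fell, from 58.5 and 63.8 CPM to 26.9, 30.6 and 35.1 CPM in virgin islets, a log2 fold change of -0.99 (SE 0.19, adjusted p = 0.00244) and of -0.98 (SE 0.17, adjusted p = 0.00177) in multipara islets. *Aimp2* and *Eef1e1* did not pass the threshold in either.

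Because cytosolic synthetase genes are known ATF4 targets, their promoters were searched for the core of the ATF4 response element, TGATGNAA, on either strand from 250 bases before to 50 bases after the annotated start. RefSeq promoters on GRCm38.p6 matched 26 of the 35 members. The motif was found in 5 of 12 cytosolic promoters (41.7%), in 0 of 14 mitochondrial promoters and in the promoters of 1219 of 27025 genes in all (4.51%). The windows are shown because the genes that hold the motif include *Aars*, *Gars* and *Yars*, which fell with S-961. Each is 30 bases long, read 5′ to 3′ on the strand that carries the motif, which is in capitals.
*Aars*, chr8:111033840-111033869, minus strand: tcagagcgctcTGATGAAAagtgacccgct
*Gars*, chr6:55037960-55037989, minus strand: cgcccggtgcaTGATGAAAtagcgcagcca
*Iars*, chr13:49682126-49682155, minus strand: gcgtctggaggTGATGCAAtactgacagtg
*Tars*, chr15:11399655-11399684, plus strand: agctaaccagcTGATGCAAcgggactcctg
*Yars*, chr4:129189895-129189924, plus strand: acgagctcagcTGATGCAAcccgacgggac

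Bases were counted from the annotated start. In the windows shown, the motif ran from 10 to 17 in *Aars*, from -30 to -23 in *Gars*, from 8 to 15 in *Iars*, from -15 to -8 in *Tars* and from 4 to 11 in *Yars*. Of these windows, that of *Yars* alone had it on the strand of the gene. *Iars* and *Tars* hold the motif but did not pass the threshold with S-961, with log2 fold changes of 0.24 (SE 0.16) and 0.32 (SE 0.18) in virgin islets and of 0.08 (SE 0.15) and 0.02 (SE 0.17) in multipara islets. *Sars* fell and these letters were not in its window, and *Cars* had no window in the table. A match is a description of letters and not of binding.

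Genes of the ATF4 programme beyond the synthetases were also compared between S-961 and untreated libraries. Of 31 listed genes 13 fell and 7 rose in virgin islets with a median log2 fold change of -0.43, and 12 fell and 5 rose in multipara islets with a median of -0.41, beside medians of -0.04 and 0.03 for all genes. Of all genes, 17.6% were lower and 18.8% higher in virgin and 19.4% and 18.2% in multipara islets, so the listed genes that rose were near that background. *Trib3*, a pseudokinase gene that ATF4 and CHOP induce, was at 21.8 and 33.9 CPM in virgin untreated and 1.39, 2.20 and 1.16 CPM in virgin S-961 libraries, a log2 fold change of -4.13 (SE 0.56, adjusted p = 0.000479). *Chac1*, which degrades glutathione, fell by 3.28 on the log2 scale in both groups (adjusted p = 0.000161 and 9.6e-05). *Ddit3*, which encodes CHOP, was at 69.3 and 91.6 CPM in virgin untreated and 25.5, 23.8 and 28.3 CPM in virgin S-961 libraries, a log2 fold change of -1.64 (SE 0.19, adjusted p = 0.000241) and of -2.02 (SE 0.17, adjusted p = 7.88e-05) in multipara islets.

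*Atf4* itself did not pass the threshold, with log2 fold changes of -0.41 (SE 0.22) and -0.43 (SE 0.21), and neither did asparagine synthetase, *Asns*, with -0.43 (SE 0.19) and -0.34 (SE 0.18). Among the genes of the list that rose were *Cebpb*, which encodes a transcription factor that also serves inflammation, by 1.83 (SE 0.26, adjusted p = 0.000644) and 2.26 (SE 0.26, adjusted p = 0.000226), and the glutamine carrier *Slc38a2* by 0.58 (SE 0.15, adjusted p = 0.0128) and 0.63 (SE 0.15, adjusted p = 0.00759). Of the 4 kinases that phosphorylate eIF2α upstream of ATF4, 2 rose in both groups. Of all genes, 18.8% rose in virgin and 18.2% in multipara islets, and with only 4 genes nothing particular to the kinases is read from the count. *Eif2ak3*, which encodes PERK of the endoplasmic reticulum, rose by 1.26 (SE 0.17, adjusted p = 0.000552) and 1.13 (SE 0.17, adjusted p = 0.000704), and *Eif2ak4*, which encodes the amino acid sensor GCN2, by 0.69 (SE 0.15, adjusted p = 0.00473) and 0.75 (SE 0.14, adjusted p = 0.0029). Between untreated multipara and virgin libraries 0 of the 28 listed ATF4 genes tested passed. Of these, 2 higher and 1 lower had an unadjusted p under 0.05, against 5.62% of all genes in either direction.

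**Figure D5:**
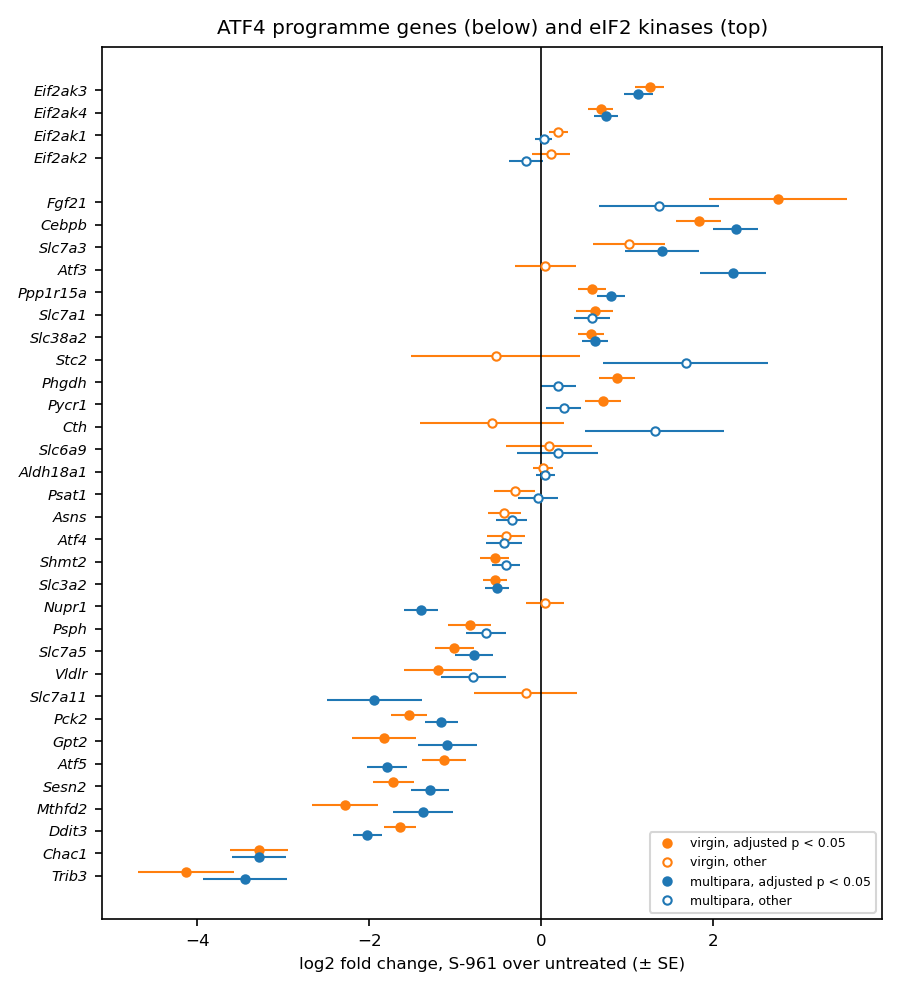
Log2 fold change of S-961 over untreated libraries with its SE for the 31 genes of the ATF4 list and, above the gap, the 4 eIF2α kinases, in virgin (orange) and multipara (blue) islets. Filled points have an adjusted p under 0.05. *Trib3* and *Chac1* lie at the far left with -4.13 to -3.28, and *Eif2ak3* and *Eif2ak4* lie between 0.69 and 1.26.

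Mitochondrial translation genes outside the synthetases were compared in the same way. Of the 9 factors, 1 rose and 2 fell in virgin islets and 2 rose and 3 fell in multipara islets, against 17.6% to 19.4% of all genes in each direction, from which nothing particular to the 9 is read. *Gfm1*, an elongation factor, rose by 0.73 (SE 0.14, adjusted p = 0.00299) and 0.58 (SE 0.14, adjusted p = 0.00804). The initiation factor *Mtif3* fell, with log2 fold changes of -0.74 (SE 0.18, adjusted p = 0.00956) and -0.80 (SE 0.17, adjusted p = 0.00488). *Gatb* and *Gatc*, subunits of the amidotransferase that makes mitochondrial glutaminyl-tRNA from the product of *Ears2*, fell in both groups, *Gatb* by 0.92 and 0.67 on the log2 scale.

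Acinar markers rose with S-961 in the same libraries. Of the 14 acinar markers 12 rose in virgin islets with a median log2 fold change of 4.90 and 13 in multipara islets with a median of 5.84. In virgin islets 3 of 4 alpha, 2 of 2 delta and 1 of 6 immune markers fell, and 0 of 3 red cell markers passed the threshold. In multipara islets 4 of 6 immune and 3 of 3 red cell markers fell, and 0 of 2 delta markers passed. There 1 alpha marker fell and 2 rose, and 2 of 5 stromal markers rose. Of 8 beta cell markers 3 rose and 3 fell in each parity group. Of all genes, 17.6% to 19.4% passed in each direction. The part of these cells in the synthetase results was not tested. With the mean log2 CPM of the acinar markers as a covariate 0 members were called in either group, and the fit then called 1 gene of all in virgin and 0 in multipara islets. The log2 fold changes under that covariate were -1.17 for *Yars*, -1.46 for *Aars*, -1.84 for *Cars*, -0.87 for *Gars* and -0.51 for *Sars* in virgin islets, and -1.15, -1.32, -1.49, -0.73 and -0.66 in multipara islets. That of *Lars2* was -0.94 and -3.83. Because no treated library had an acinar level within the untreated range, treatment and acinar content cannot be told apart in these libraries. The labels name no batch, and whether treated and untreated libraries were prepared together is not stated. The locus *AY036118*, at 0 in all 7 treated libraries and at 152 CPM or more in the untreated ones, separates them as fully as the acinar markers do.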

How the data were processed

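The 11 poly(A)-selected, stranded islet libraries had been processed by the authors into expected counts per gene, with STAR and RSEM and the GRCm38 (mm10) build named in the submitters' processing notes and versions not given in the sources used here. RSEM divides reads shared between similar genes, so paralogs and repeats are less certain. The deposited expected counts were rounded to whole numbers. Genes were kept by edgeR's filterByExpr (minimum count 10, minimum total 15), libraries were scaled by TMM, and log2 CPM used a prior count of 2.

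Groups followed the sample titles. Differences were tested with edgeR 4.0.16 (limma 3.58.1, R 4.3.3), by the quasi-likelihood F-test with Benjamini-Hochberg adjustment over all genes tested and a threshold of 0.05. Each parity comparison used a fit of its own libraries, whereas all 11 entered the fit of the S-961 effects and the interaction. Alternatives were DESeq2 1.42.0, its size factors, no filter, a replicate block, an acinar covariate, other libraries in the fit and leaving out each library. Scripts were tested on simulated data. Figures used matplotlib 3.10.9, and transcripts were compared with blastn 2.17.0+.

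The genes described and the lists were chosen with earlier results of these data known. Values in every library were given for *Lars2* and for members past the threshold or, where a comparison had none, for the 5 of smallest p. No 2 libraries of a group agreed within sampling noise, and library depth limited no member, the smallest member count being 52. The mitochondrial aspartate enzyme and the cytosolic methionine enzyme were not analysed here. A further promoter window is not reported here.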

Additional observations from a re-analysis of the deposited data

How the results depend on the processing

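With 2 to 4 libraries per group, the counts of members called were the results that depended most on the processing. Between untreated groups, 0 members were called by edgeR and 1, *Lars2*, by DESeq2, and the count ran from 0 to 3 when single libraries were left out, as did *Lars2* from 2.30 to 3.21 on the log2 scale. For the interaction, 1 member, *Lars2*, was called by DESeq2 and without the filter, and 0 to 1 with single libraries left out. For S-961 in virgin islets the 13 calls became 0 with the acinar covariate, 23 in a fit of the virgin libraries alone and 6 to 18 with single libraries left out, and for S-961 in multipara islets the 10 calls became 0 with the covariate and 7 to 18. With the covariate the median log2 fold change was 0.45 for cytosolic and 0.29 for mitochondrial enzymes in virgin islets, and 0.13 for mitochondrial enzymes in multipara islets. The cause was not tested beyond the smaller number of libraries or the added term. Over all results and alternatives computed, 735 values were labelled unchanged. For single genes this meant the same direction and side of the threshold, and for counts and medians a set margin around the main value. That margin let medians near 0 change sign, as for cytosolic enzymes with S-961 in multipara islets, from 0.08 to -0.01 at the lowest. In addition 42 single-gene calls were lost, 8 were gained, 16 counts or medians moved as given above, and no called single-gene value changed direction.

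Same-numbered libraries correlated in their deviations at 0.28 between the untreated groups and at -0.15 to 0.12 otherwise, so the numbers were not taken to pair them. With a replicate block, 0, 0, 0, 13 and 10 members were called in the parity comparisons with S-961 and untreated, the interaction and the S-961 comparisons in virgin and multipara islets, and *Lars2* differed by 2.75 between untreated groups.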
